A study of Mus musculus with 8 samples.

Results

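The nuclear-encoded subunits of the mitochondrial respiratory chain, and the ATP synthase it drives, were followed in hepatic stellate cells of the mouse, pericytes of the liver that store vitamin A. Genes were taken from the platform's probe table where the symbol began with Ndufa, Ndufb, Ndufc, Ndufs or Ndufv, with Sdha to Sdhd, with Uqcr, with Cox4 to Cox8 or with Atp5. After 3 pseudogenes were left out, 99 such symbols remained. Of these, 8 (Cox6c, Ndufb2, Ndufb4, Ndufb4b, Ndufb4c, Ndufs6, Ndufs6b and Uqcr10) lay only on probe sets that carry several symbols. Sdhaf1 to Sdhaf4 and 8 Ndufaf genes also met the prefixes. This left 91 members of 22180 named genes. By complex there were 32 genes of complex I, 4 of complex II, 7 of complex III, 17 of complex IV and 17 of complex V, and the pair of Ndufa4 and Ndufa4l2 was kept apart. The other 12 members encode assembly factors, which build the complexes and are not part of them, so 79 members are subunits.

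The data comprised 8 Affymetrix arrays in 4 groups of 2. Cells from healthy mice of the inbred strain BALB/c were taken at 0 hours without seeding and are called quiescent, and the same kind of cell was kept on plastic for 10 days. In vivo activated cells were isolated without seeding from BALB/c mice given carbon tetrachloride (CCl4), a hepatotoxin that produces fibrosis, for 2 weeks or for 4 weeks. The ages and sexes of the mice are not given in the sources used here, nor whether a group's 2 arrays represent different animals. The p-values therefore reflect the spread among these samples alone, and that spread may be technical. A treatment protocol attached to all 8 samples names valproic acid, a histone deacetylase inhibitor, at 2.5 mM after seeding. No title or treatment label names it, and in the cultured cells its effect and that of culture cannot be told apart. Levels are the deposited log2 RMA values, and changes are log2 fold changes ± standard error (SE) from limma, called at a Benjamini-Hochberg adjusted p under 0.05 over the 22180 genes.

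Complexes I to IV pass electrons from NADH and succinate to oxygen and, except for complex II, pump protons across the inner mitochondrial membrane. Complex V, the ATP synthase, uses the proton gradient to make ATP. Most subunits are encoded in the nucleus and imported, a small core is encoded in mitochondrial DNA, and several subunits of complex IV exist as isoforms that differ between tissues or with oxygen supply. Nuclear respiratory factor 1 (NRF1), the ETS factor GABPA and YY1 are known to bind promoters of such genes. Stellate cells turn into matrix-producing myofibroblasts in injured liver or on plastic.

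Markers of activation and of other liver cells moved between the groups. Of 11 measured markers of activated stellate cells, such as Acta2 and Col1a1, 9 rose in culture, 10 after 2 weeks and 11 after 4 weeks of CCl4, and of 14 markers of quiescent ones 11 fell in culture, 5 at 2 weeks and 7 at 4 weeks, where Pdgfrb rose at both times. The mean level of 19 hepatocyte markers was 8.13 to 8.94 on the quiescent arrays and 4.96 to 4.98 in culture, with 7.02 to 7.53 after 2 weeks and 6.31 to 6.57 after 4 weeks of CCl4. For 16 sinusoidal endothelial markers the ranges were 8.69 to 9.62, 5.43 to 5.69, 7.53 to 7.84 and 6.94 to 7.26, and for 14 macrophage markers 7.94 to 8.03, 6.41 to 6.53, 7.77 to 8.05 and 6.39 to 6.42. In culture 9 of the hepatocyte markers, Alb and Apob among them, lay at or under 4.76, the 95th percentile of 1390 olfactory and vomeronasal receptor genes, used as a guide to background. In these bulk samples, fewer cells of a type and less RNA per cell cannot be told apart. The quiescent arrays differed most from each other, with 565 genes over 2-fold apart against 56 to 158 in the other groups, Cox8b and Ndufb11 among them.

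The members gave bright signals. Their median lay at percentile 92.6 of all named genes, and 49 of 91 (53.8%) were in the top 10%. On any group mean 87 members exceeded the background guide, while Ndufs5, Atp5o, Cox7b2 and Cox8c stayed at or under it in all 4 groups. The brightest signals of each complex belonged to Ndufa11, Sdhc, Uqcrb, Cox6a1 and Atp5e and the dimmest to Ndufs5, Sdhb, Uqcrfs1, Cox7b2 and Atp5o. Signals of different probe sets do not rank the transcripts.

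Promoters of part of the members held short sequences known to bind NRF1, ETS factors or YY1. RefSeq's table (assembly GRCm38.p6), which runs from 250 bases before to 50 bases after each gene's start, held 76 of the 91 members. Each motif was searched on both strands, with overlapping matches counted. Some genes had more than 1 window (81 windows for the 76 members), and a gene was counted if any of its windows held the motif. The NRF1 core GCGCANGCG stood in 22 of the 76 (28.9%), against 9.7% of the 16918 genes of the table that are named on the array. The ETS motif CCGGAAG also stood in 22 of 76 (28.9%, against 12.7%), and the YY1 motif GCCATNTT in 19 of 76 (25%, against 7.5%). The estrogen-related receptor motif TNAAGGTCA was in 2 of 76 (2.6%, against 1.2%) and the hypoxia response core ACGTG in 19 of 76 (25%, against 23.8%). The windows of members were richer in G and C, with a median of 58.7% against 56.7%, and the part of base composition in these shares was not tested.

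The windows of 6 members on which the results below turn are shown, 5 that rose in culture and Cox8b, which fell. Capitals mark matches to the NRF1, ETS and YY1 motifs, and sequences run 5′ to 3′ on the gene's strand. Uqcrc1 (chr9:108936398-108936697, plus strand) holds 3 NRF1 matches just after its start, of which a pair overlap. Ndufb6 (chr4:40279372-40279671, minus strand) and Cox6b1 (chr7:30626065-30626364, minus strand) each hold 1 ETS match, at positions -232 and -28 from the start. Ndufa3 (chr7:3617123-3617422, plus strand) holds 1 YY1 match at position 23. Cox6b2 (chr7:4753045-4753344, minus strand) and Cox8b (chr7:140900397-140900696, minus strand) show none of these 3 motifs in the window.
Uqcrc1: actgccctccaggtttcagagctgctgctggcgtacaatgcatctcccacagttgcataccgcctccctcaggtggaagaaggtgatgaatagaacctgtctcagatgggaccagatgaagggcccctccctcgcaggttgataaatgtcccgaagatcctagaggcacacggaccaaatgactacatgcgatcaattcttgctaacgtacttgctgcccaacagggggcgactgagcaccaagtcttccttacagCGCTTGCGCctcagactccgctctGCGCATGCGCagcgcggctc
Ndufb6: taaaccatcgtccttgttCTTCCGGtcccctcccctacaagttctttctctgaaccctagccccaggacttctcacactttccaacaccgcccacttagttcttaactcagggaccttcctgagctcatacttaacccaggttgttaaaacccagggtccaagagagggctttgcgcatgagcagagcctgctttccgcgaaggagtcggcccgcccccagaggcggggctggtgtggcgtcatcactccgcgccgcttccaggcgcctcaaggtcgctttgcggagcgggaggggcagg
Ndufa3: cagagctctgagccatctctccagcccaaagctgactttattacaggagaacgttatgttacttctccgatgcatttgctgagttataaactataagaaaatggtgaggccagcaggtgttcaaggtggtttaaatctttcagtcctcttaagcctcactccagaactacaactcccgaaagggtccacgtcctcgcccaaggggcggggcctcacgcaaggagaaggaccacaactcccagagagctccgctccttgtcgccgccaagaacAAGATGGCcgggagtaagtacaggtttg
Cox6b1: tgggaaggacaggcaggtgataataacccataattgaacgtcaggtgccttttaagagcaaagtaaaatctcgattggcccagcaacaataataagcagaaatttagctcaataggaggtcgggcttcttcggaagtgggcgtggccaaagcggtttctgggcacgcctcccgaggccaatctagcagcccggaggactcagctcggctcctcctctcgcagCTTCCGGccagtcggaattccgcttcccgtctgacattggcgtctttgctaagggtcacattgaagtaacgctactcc
Cox6b2: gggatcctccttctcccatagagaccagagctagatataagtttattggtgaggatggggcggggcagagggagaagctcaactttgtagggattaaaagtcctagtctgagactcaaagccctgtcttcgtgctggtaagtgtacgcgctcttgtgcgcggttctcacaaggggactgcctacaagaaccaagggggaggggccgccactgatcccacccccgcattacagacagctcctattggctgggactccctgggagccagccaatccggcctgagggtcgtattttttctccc
Cox8b: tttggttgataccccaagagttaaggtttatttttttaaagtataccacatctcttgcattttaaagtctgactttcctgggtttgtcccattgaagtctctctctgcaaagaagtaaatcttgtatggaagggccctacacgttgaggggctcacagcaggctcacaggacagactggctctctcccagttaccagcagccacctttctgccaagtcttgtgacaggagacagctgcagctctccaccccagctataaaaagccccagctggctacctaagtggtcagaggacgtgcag
Members that rose in culture did not hold these motifs more often than the other members in the table. The NRF1 and ETS motifs each stood in 7 of 33 rising members and in 15 of 43 others, and the YY1 motif in 8 of 33 and 11 of 43. The CCAAT box, the letters CCAAT, stood in 7 of 33 rising members and 24 of 43 others, beside 41.6% of the genes named on the array. These are counts of letters and were not tested.

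After 10 days of culture a large share of the respiratory chain genes was higher by a small amount. Of 91 members 37 rose (40.7%) and 3 fell, while 12.9% of all genes were called higher and 10.3% lower (23.2% in either direction). The median member changed by 0.43, a 1.35-fold increase, and 81 of 91 changes were above 0, with a median over all named genes of 0.01. Both cultured arrays lay above both quiescent arrays for 70 members and below them for 7 (31.2% and 27% of all genes). On single arrays, the median of the 79 subunits against the quiescent mean was 0.45 and 0.41 in culture and -0.06 and 0.06 in quiescent cells, so both cultured arrays contributed. A cyclic loess normalization of the deposited values, which removes differences that depend on brightness, left 19 of the 37 rises (20.9% of members, against 11% of all genes) and a median of 0.21. With dim genes left out, 35 of 87 members rose (40.2%), against 21.5% of all genes tested. Fewer members, and fewer of all genes, were called higher without quiescent replicate 1 or without culture replicate 1 or 2. The members' share then lay nearer to that of all genes, with medians of 0.39, 0.41 and 0.45 in that order. The hepatocyte, endothelial and macrophage markers fell in the same comparison in 16 of 19, 16 of 16 and 12 of 14 cases. The macrophage marker Lyz2 rose, and the part of these markers in the result was not tested.

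**Figure D1:**
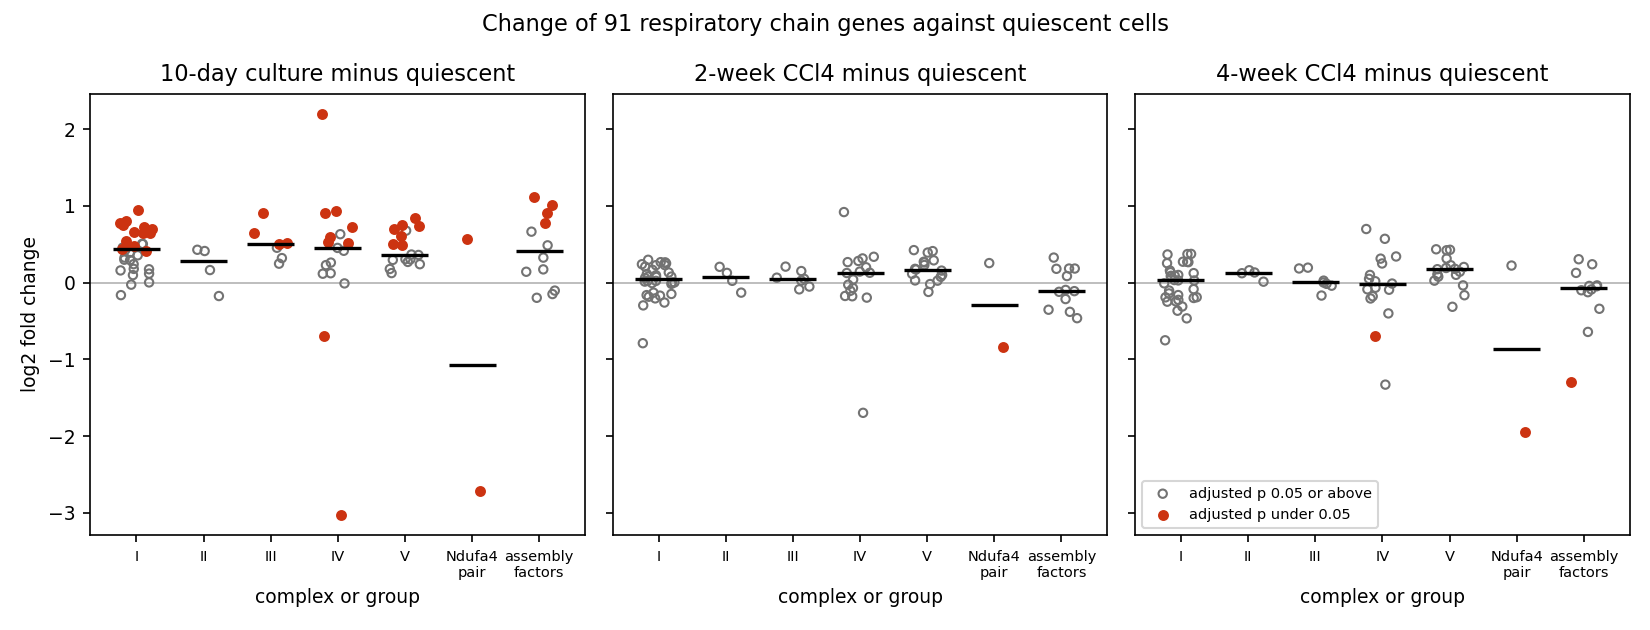
Log2 fold change of each of the 91 genes against quiescent cells (vertical axis) by complex (horizontal axis) in 10-day culture, 2-week CCl4 and 4-week CCl4, from limma with 2 arrays a group; filled points have an adjusted p under 0.05 and bars are medians. In culture 37 genes rose and 3 fell, while after CCl4 no gene rose and 1 and 3 fell.

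Complex I, which takes electrons from NADH, had 14 of its 32 members rise in culture and none fall, with a median of 0.44. Ndufb6, an accessory subunit of the membrane arm whose promoter is printed above, stood at 8.24 and 8.27 in quiescent cells, 9.26 and 9.15 in culture, 8.65 and 8.39 at 2 weeks and 8.51 and 8.55 at 4 weeks of CCl4. Its cultured arrays were above all 6 others, and it rose by 0.95 ± 0.14 (adjusted p = 0.0014). Ndufa3, another accessory subunit, was at 10.53 and 10.71, 11.43 and 11.41, 11.02 and 10.82, and 10.71 and 10.81 in the same order, and rose by 0.80 ± 0.14 (adjusted p = 0.00331). Ndufa8, an accessory subunit on the intermembrane side, was at 9.47 and 9.51 in quiescent cells against 10.12 and 10.18 in culture, a rise of 0.66 ± 0.13 (adjusted p = 0.00584) that was not called after cyclic loess (0.40, adjusted p = 0.053). All 3 had their cultured arrays apart from every other array. The other rises ran from 0.42 for Ndufb9 to 0.78 for Ndufa11. Ndufv2, a core subunit with an iron-sulfur cluster, was among them (0.75 ± 0.16), while its partner Ndufv1, which binds NADH, changed by 0.00 ± 0.14 (adjusted p = 0.991). After cyclic loess 6 of the 14 rises remained, namely Ndufa3, Ndufab1, Ndufb6, Ndufc1, Ndufs5 and Ndufv2, and the median was 0.19. Ndufs5, the dimmest member, rose by 0.45 ± 0.13 at signals of 3.82 to 4.31, under the background guide.

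Complex II, succinate dehydrogenase, also belongs to the citric acid cycle and is encoded in the nucleus alone. None of its 4 genes passed the test in culture. Sdha, the flavoprotein that oxidizes succinate, stood at 8.79 and 8.75 in quiescent cells and 8.56 and 8.64 in culture, a difference of -0.17 ± 0.15 (95% interval -0.50 to 0.16, adjusted p = 0.49). Sdhb, the iron-sulfur subunit, was at 7.72 and 7.55 against 8.05 and 8.05 (0.41 ± 0.15, interval 0.08 to 0.75, adjusted p = 0.0779). The membrane anchors Sdhc and Sdhd differed by 0.16 ± 0.14 (interval -0.15 to 0.48) and 0.43 ± 0.18 (interval 0.03 to 0.83). Sdha was thus the one member of the complex with both cultured arrays below the quiescent arrays, and the other 3 had them above.

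Complex III passes electrons from ubiquinol to cytochrome c. In culture 4 of its 7 genes rose, none fell, and all 7 had both cultured arrays above both quiescent arrays, with a median of 0.50. Uqcrq, a small subunit near the ubiquinone site, was at 8.79 and 8.68 in quiescent cells, 9.60 and 9.69 in culture, 9.06 and 8.83 at 2 weeks and 8.97 and 8.89 at 4 weeks, and rose by 0.91 ± 0.14 (adjusted p = 0.00169). Uqcrc1, core protein 1, whose promoter holds the NRF1 matches above, was at 8.30 and 8.40 against 8.96 and 9.04 in culture and rose by 0.65 ± 0.13 (adjusted p = 0.00751; 0.0531 without culture replicate 2). Uqcrfs1, the Rieske iron-sulfur protein, rose by 0.51 ± 0.14 (adjusted p = 0.032). Its call was lost with 1 array left out in 5 of 8 fits, with adjusted p 0.0517 without either 4-week array, 0.154 without quiescent replicate 1, and 0.0622 and 0.173 without culture replicate 2 or 1. Uqcrq and Uqcrc1 were the rises left after cyclic loess.

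Complex IV, cytochrome c oxidase, reduces oxygen. It had 7 of 17 genes rise and 2 fall in culture, with a median of 0.45. Cox5a, a nuclear subunit of the matrix side without a tissue isoform, was at 10.57 and 10.72 in quiescent cells and 11.58 and 11.58 in culture, beside 10.84 to 11.02 on the CCl4 arrays, and rose by 0.93 ± 0.14 (adjusted p = 0.00125). After cyclic loess Cox5a, Cox6b1 and Cox6b2 remained as rises and Cox8b and Cox4i2 as falls.

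Complex IV also has isoform pairs, and differences within a pair were not tested. Cox6b1, the general isoform of a subunit at the dimer interface, was at 10.16 and 10.40 in quiescent cells, 11.13 and 11.25 in culture, 10.84 and 10.25 at 2 weeks and 10.37 and 10.39 at 4 weeks. It rose in culture by 0.91 ± 0.20 (adjusted p = 0.00981; 0.0527 without quiescent replicate 1 and 0.0648 without culture replicate 2). Cox6b2, known as the testis isoform, was at 6.87 and 7.73, then 9.44 and 9.57, 8.25 and 8.19, and 7.88 and 8.12. Every array of activated cells was above both quiescent arrays, and the rise in culture was 2.20 ± 0.25 (4.61-fold, adjusted p = 2.81e-04), kept in all 15 alternative fits.

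Cox8b, the heart and skeletal muscle isoform of subunit VIII, had a log2 fold change of -3.03 ± 0.62 in culture (adjusted p = 0.00722), from 8.01 and 6.97 to 4.50 and 4.43, which is under the background guide. At 2 weeks of CCl4 its arrays lay far apart, at 4.64 and 6.96, and at 4 weeks at 6.18 and 6.15. The differences there were -1.70 ± 0.62 and -1.33 ± 0.62 (adjusted p = 0.197 and 0.277). They were called without 2-week replicate 2 (adjusted p = 0.0178 for -2.85) and, at 4 weeks, without either 2-week array (adjusted p = 0.043). Cox8a, the general isoform, was at 10.83 and 11.03 in quiescent cells and 11.10 and 11.22 in culture (0.23 ± 0.15, adjusted p = 0.351). The third isoform, Cox8c, had a signal at background in all groups.

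Cox4i2, known as the lung isoform that responds to low oxygen, fell by 0.69 ± 0.18 on the log2 scale in culture (adjusted p = 0.0233), from 6.62 and 6.50 to 5.91 and 5.84. On the CCl4 arrays it stood at 6.44 to 6.94, around its quiescent level. The fall was lost when quiescent replicate 1 or either cultured array was left out (adjusted p = 0.0952, 0.0784 and 0.117), nor with array medians subtracted (0.0528). Cox4i1, the general isoform, moved the other way, from 10.83 and 10.99 to 11.40 and 11.46, by 0.52 ± 0.14 (adjusted p = 0.0273), and was not called after cyclic loess (0.21, adjusted p = 0.373) or without the same 3 arrays (0.0847 to 0.132).

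Among the remaining isoforms, Cox7a2, the liver form of subunit VIIa, rose by 0.53 ± 0.15 in culture (adjusted p = 0.035). Its call was lost without any quiescent or cultured array (adjusted p 0.0554 to 0.142). The muscle forms Cox7a1 and Cox6a2 differed by 0.42 ± 0.20 and 0.12 ± 0.25, Cox6a1 by 0.26 ± 0.13 and the testis form Cox7b2, at background, by 0.12 ± 0.17, none of them called. Cox7a1 was called without quiescent replicate 1 (0.72, adjusted p = 0.0253). Cox7b differed by 0.45 ± 0.22 on the probe set used (adjusted p = 0.191), while its dimmer probe set rose by 1.25 ± 0.35 (adjusted p = 0.0348 over probe sets).

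**Figure D2:**
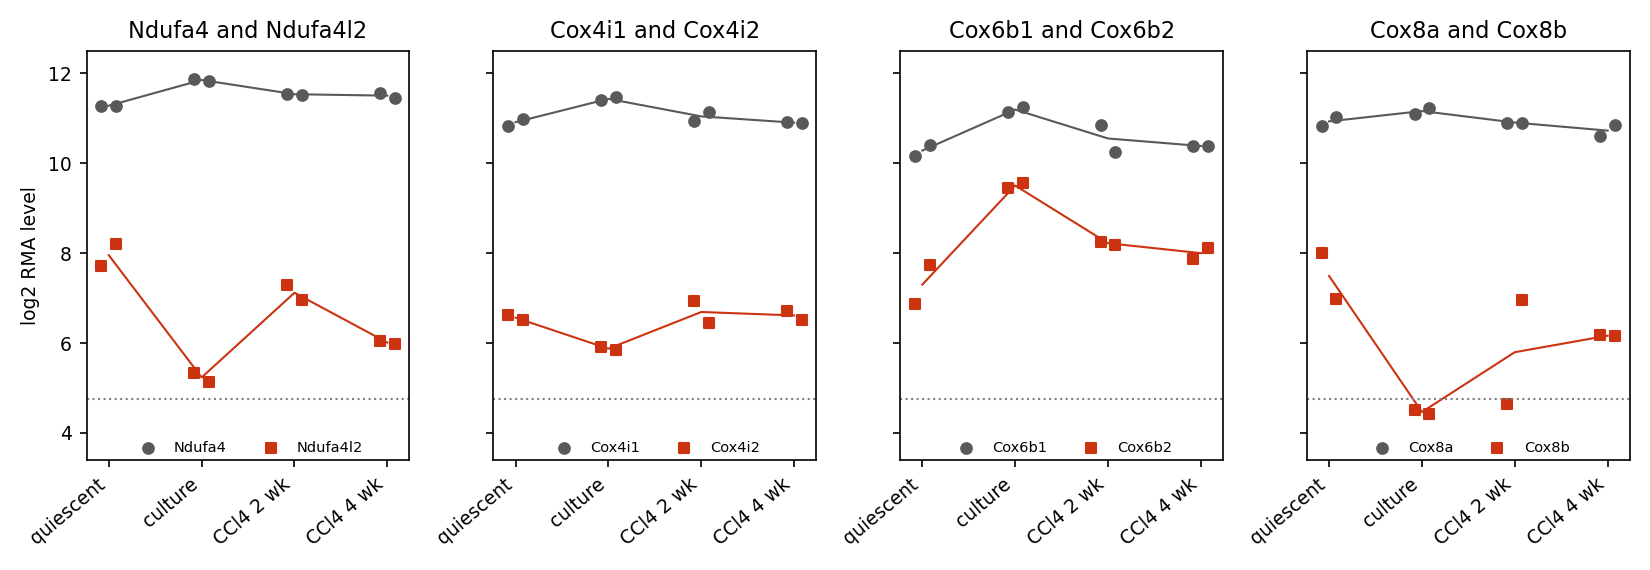
Log2 RMA level on each array (vertical axis) of 4 pairs of general (circles) and restricted or inducible isoforms (squares) in the 4 groups (horizontal axis); lines join the means of the 2 arrays and the dotted line is the background guide of 4.76. In culture Ndufa4l2, Cox4i2 and Cox8b were below their quiescent arrays and Cox6b2 above; heights of different genes are not comparable.

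Ndufa4l2 was the member with the smallest adjusted p. Ndufa4 was first named as a complex I subunit and is now assigned to complex IV, and Ndufa4l2 is its paralogue, known as a target of hypoxia-inducible factor 1 that lowers complex I activity. Ndufa4l2 stood at 7.71 and 8.20 in quiescent cells, 5.34 and 5.13 in culture, 7.29 and 6.95 at 2 weeks and 6.05 and 5.97 at 4 weeks of CCl4. All 6 arrays of activated cells were below both quiescent arrays, the cultured ones lowest. It fell by 2.72 ± 0.20 on the log2 scale in culture (6.58-fold lower, adjusted p = 2.13e-05) and by 1.94 ± 0.20 at 4 weeks (3.85-fold lower, adjusted p = 7.15e-04), and both calls were kept in all 15 alternative fits. At 2 weeks it fell by 0.84 ± 0.20 (adjusted p = 0.0486), a call lost in 11 of 15, among them 7 of the 8 that left out 1 array (adjusted p 0.0754 to 0.204). It was kept without quiescent replicate 1.

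The 4-week arrays of Ndufa4l2 lay below the 2-week arrays, by -1.11 ± 0.20 (adjusted p = 0.109), and this passed without either quiescent array (adjusted p = 0.038) or with the CCl4 groups alone (0.048). Ndufa4 itself went the other way in culture, from 11.28 and 11.28 to 11.88 and 11.82 (0.57 ± 0.13, adjusted p = 0.0115). It was not called without culture replicate 1 or 2 (adjusted p = 0.0653 and 0.0507) or after cyclic loess (0.25, adjusted p = 0.244). After CCl4 it stood at 11.44 to 11.56. Neither Ndufa4l2 nor Cox4i2 has an entry in the promoter table.

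Complex V makes ATP at its F1 head while protons pass its membrane part. All 17 genes had a change above 0 in culture, 7 rose and none fell, with a median of 0.37. Atp5md, a small membrane subunit also called DAPIT, was at 11.01 and 11.06 in quiescent cells, 11.84 and 11.91 in culture, 11.18 and 10.95 at 2 weeks and 11.13 and 11.23 at 4 weeks, and rose by 0.84 ± 0.14 (adjusted p = 0.00244). Atp5d, the delta subunit of the central stalk, was at 11.03 and 11.12 against 11.79 and 11.85 in culture and rose by 0.75 ± 0.13 (adjusted p = 0.00298). Atp5pb, subunit b of the peripheral stalk, was at 8.95 and 8.78 against 9.57 and 9.64 and rose by 0.74 ± 0.15 (adjusted p = 0.00668). These 3 calls were kept in all 15 alternative fits, and Atp5o, of the peripheral stalk and at background signal, was the other rise left after cyclic loess.

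Atp5b, the catalytic beta subunit of the F1 head, rose by 0.49 ± 0.15 (adjusted p = 0.0439), a call lost in 10 of 15 alternative fits, 7 of them leaving out 1 array (adjusted p up to 0.231). Atp5a1, the alpha subunit, was at 10.40 and 10.58 in quiescent cells, 10.63 and 10.60 in culture, 10.78 and 11.05 at 2 weeks and 10.98 and 10.87 at 4 weeks. Its CCl4 arrays were above all quiescent and cultured arrays, but the differences of 0.42 ± 0.15 and 0.44 ± 0.15 were not called (adjusted p = 0.177 and 0.124). The genes of the membrane ring, Atp5g1, Atp5g2 and Atp5g3, differed in culture by 0.68 ± 0.26, 0.30 ± 0.14 and 0.31 ± 0.14, also not called, though Atp5g1 was without quiescent replicate 2 (1.10, adjusted p = 0.00505).

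Of the 12 assembly factors, 4 rose in culture and none fell, with a median of 0.41. Ndufaf1, which helps to build the membrane arm of complex I, was at 6.80 and 6.73 in quiescent cells, 7.61 and 7.74 in culture and 6.66 to 6.97 after CCl4, and rose by 0.91 ± 0.13 (adjusted p = 0.00107). Ndufaf5 and Ndufaf2, also of complex I, rose by 1.12 ± 0.18 (adjusted p = 0.00223) and 1.02 ± 0.19 (adjusted p = 0.00489). Sdhaf2, which helps to attach the flavin to Sdha, rose by 0.78 ± 0.16 (adjusted p = 0.00704; 0.0566 without culture replicate 1). All 4 were also called after cyclic loess.

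**Figure D3:**
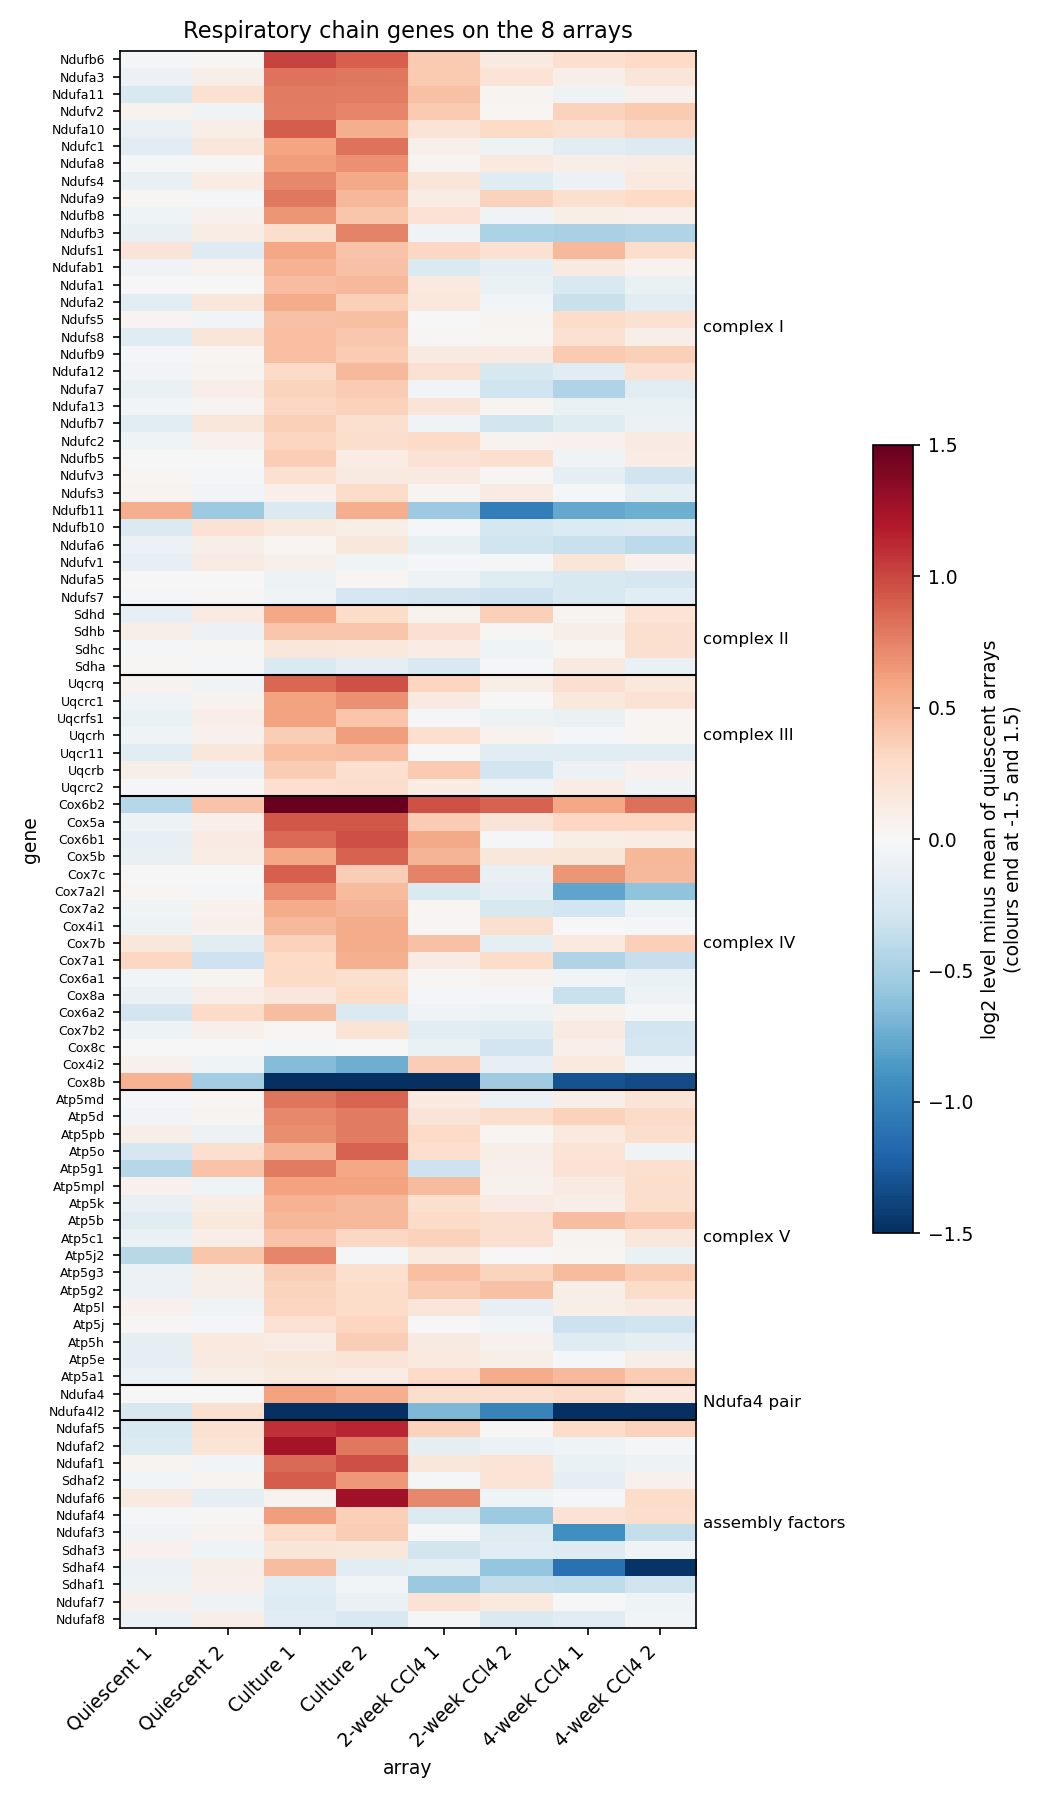
Log2 level of each of the 91 genes (rows, by complex) on each of the 8 arrays (columns) minus the mean of the quiescent arrays; colours run from -1.5 to 1.5. Most rows are above 0 on both cultured arrays, and the rows of Ndufa4l2, Cox8b and Cox4i2 are among those below. The medians of the CCl4 columns are near 0 (-0.009 to 0.14), while single rows such as Ndufa4l2 and Cox6b2 are not.

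After 2 weeks of CCl4 no member rose and Ndufa4l2 alone fell, beside 2.34% of all genes called higher and 2.43% lower (4.77% in either direction). The median change was 0.08, with 60 of 91 above 0, and -0.00143 after cyclic loess. Both 2-week arrays lay above both quiescent arrays for 24 members and below them for 14, beside 22% and 21.6% of all genes. At an unadjusted p under 0.05 there were 8 members (8.79%), against 16.9% of all genes. Cox6b2 differed by 0.92 ± 0.25 (interval 0.35 to 1.49, adjusted p = 0.0805) and was called without quiescent replicate 2, the brighter of the pair (1.35, adjusted p = 0.00301). By complex the medians were 0.04, 0.08, 0.05, 0.13 and 0.17 for complexes I to V, and those of I, III and IV were below 0 after cyclic loess. For complex V 15 of 17 changes were above 0. Hepatocyte, endothelial and macrophage markers fell at 2 weeks in 9 of 19, 11 of 16 and 1 of 14 cases. The macrophage markers Cd68 and Lyz2 rose.

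After 4 weeks of CCl4 no member rose and 3 fell, beside 4.04% of all genes called higher and 4.67% lower (8.71% in either direction). The median change was 0.03, with 51 of 91 above 0, and -0.06 after cyclic loess. The 4-week arrays were both above the quiescent pair for 28 members and both below it for 19, beside 24% and 24.7% of all genes. Besides Ndufa4l2, Cox7a2l fell by 0.70 ± 0.15 on the log2 scale (1.62-fold lower, adjusted p = 0.021). It encodes a relative of subunit VIIa known to join complexes III and IV in supercomplexes. Its levels were 8.11 and 8.06 in quiescent cells, 7.86 and 7.95 at 2 weeks and 7.29 and 7.48 at 4 weeks, against 8.80 and 8.56 in culture, where it rose by 0.59 ± 0.15 (adjusted p = 0.0176). Its 4-week arrays were thus the lowest and its cultured arrays the highest of the 8. The 4-week fall was not called without quiescent replicate 1 (adjusted p = 0.0748) or either 4-week array (0.159 and 0.0705). The rise in culture was not called without either quiescent array (0.051 and 0.0615), without culture replicate 1 (0.119) or after cyclic loess (0.0728).

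Sdhaf4, a factor that binds Sdha before complex II is put together, fell by 1.30 ± 0.24 on the log2 scale at 4 weeks (2.46-fold lower, adjusted p = 0.0126). It was at 7.38 and 7.55 in quiescent cells, 7.34 and 6.89 at 2 weeks and 6.34 and 5.99 at 4 weeks, while the cultured arrays gave 7.92 and 7.29. The 4-week arrays lay below all others, and the call was lost without 4-week replicate 1 or 2 (adjusted p = 0.0504 and 0.108). No gene of complex II itself was called at 4 weeks, where Sdha differed by 0.01 ± 0.15 (interval -0.32 to 0.34). Complex V had a median of 0.18 with 14 of 17 changes above 0, against 0.03, 0.13, 0.00 and -0.01 for complexes I to IV, and 0.02 after cyclic loess. At an unadjusted p under 0.05 there were 15 members (16.5%), against 20.6% of all genes. Hepatocyte, endothelial and macrophage markers fell at 4 weeks in 16 of 19, 14 of 16 and 10 of 14 cases, and their part in the result was not tested.

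No member was called between 4 and 2 weeks of CCl4 by limma, where 0.0271% of all genes were called higher and 0.0586% lower (0.0857% in either direction). The 4-week arrays were both above the 2-week pair for 13 members and both below it for 26, beside 18.8% and 20.2% of all genes. The median difference was -0.0045, and 7 members (7.69%) had an unadjusted p under 0.05, against 8.16% of all genes. Besides Ndufa4l2 these included Sdhaf4 (-0.95, adjusted p = 0.261) and Cox7a2l (-0.52, adjusted p = 0.323).

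Culture was also set against the mean of both CCl4 groups, which shares the cultured arrays with the comparison above. The log2 differences do not use the quiescent arrays. Those arrays were in the same fit, however, and so entered the SE, the p-values and the counts of calls. Of the members 36 were higher in culture (41 with only the groups compared in the fit) and 2 lower. The shares of all genes were 12.6% and 8.72% (21.3% in either direction), and the members' median difference was 0.38. The cultured arrays were above all 4 CCl4 arrays for 60 members and below them for 5 (21.7% and 18.2% of all genes). Complex I had 14 of 32 higher, complex III 5 of 7, complex IV 6 of 17 with 1 lower, complex V 4 of 17 and the assembly factors 7 of 12. The smallest adjusted p belonged to Cox7a2l, with a difference of 1.03 ± 0.13 (adjusted p = 5.21e-04). Ndufaf1 was higher by 0.86 ± 0.11 (adjusted p = 7.41e-04). The lower members were Ndufa4l2 (-1.33 ± 0.17, adjusted p = 6.43e-04) and Cox4i2 (-0.78 ± 0.16, adjusted p = 0.00724; 0.0662 without culture replicate 2). In complex I the smallest p-values belonged to Ndufc1 (0.79 ± 0.14), Ndufb6 (0.68 ± 0.12) and Ndufa8 (0.56 ± 0.11), and in complex V to Atp5md (0.76 ± 0.12), Atp5pb (0.56 ± 0.13) and Atp5d (0.47 ± 0.11). After cyclic loess 27 members were higher (29.7%, against 10.7% of all genes). Fewer members, and fewer of all genes, were called higher without culture replicate 1 or 2. The members' share then lay nearer to that of all genes, with a median difference of 0.375 and 0.369.

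Lists of other mitochondrial genes were followed in the same fit. Over the 7 lists 66 of 173 genes rose in culture (38.2%) and 6 fell (3.47%), beside 12.9% and 10.3% of all genes. After cyclic loess 50 of the 173 rose and 8 fell, beside 11% of all genes called higher and 11.6% lower. Of 35 further assembly factors 18 rose and none fell (median 0.57), led by Tmem126a (1.34 ± 0.14, adjusted p = 1.78e-04) and Timmdc1 (1.10 ± 0.16), both of complex I, and Cox19 (1.22 ± 0.18), of complex IV. There were 16 after cyclic loess, and 11 without culture replicate 1. Of 71 proteins of the mitochondrial ribosome, which translates the subunits encoded in mitochondrial DNA, 31 rose and none fell (median 0.53), led by Mrpl54 (2.35 ± 0.20), Mrpl45 (1.28 ± 0.16) and Mrpl34 (1.23 ± 0.17). The count was 24 after cyclic loess, 20 without quiescent replicate 1 and 20 and 18 without culture replicate 1 or 2.

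Of 9 genes for ADP/ATP and phosphate carriers, uncoupling proteins and the outer membrane channels, 6 rose, with Vdac2 (1.40 ± 0.17), Vdac3 (0.83 ± 0.17) and the ADP/ATP carrier Slc25a4 (0.86 ± 0.18) first. It was 3 after cyclic loess or without quiescent replicate 1, and 2 and 3 without culture replicate 1 or 2. Of 21 genes of the citric acid cycle and pyruvate dehydrogenase 8 rose, among them Idh3a (1.65 ± 0.20), Mdh2 (0.96 ± 0.14) and Dlat (0.91 ± 0.15). Idh2, the NADP-dependent isocitrate dehydrogenase, fell by 1.12 ± 0.21 on the log2 scale and Suclg2 by 0.72 ± 0.19. Without culture replicate 1 there were 4 rises. Among 8 electron carriers Cycs, cytochrome c, rose by 0.85 ± 0.19 and Cyc1, cytochrome c1, by 0.47 ± 0.14, while Sqor, which feeds electrons from sulfide, fell by 1.05 ± 0.18. Neither rise was called after cyclic loess or without either cultured array, and 1 was without quiescent replicate 1 or either 2-week array.

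The 10 measured subunits encoded in mitochondrial DNA, at 11.40 to 12.68 among the brightest signals of the arrays, gave no call by limma in any comparison. Their median in culture was 0.14, and -0.19 after cyclic loess, so their direction hung on the scaling. The highest level of any named gene was 13.28. Of 19 regulators 1 rose and 3 fell in culture. Hif1a, the hypoxia-inducible factor subunit, was at 8.11 and 8.41 in quiescent cells and 9.27 and 9.26 in culture (1.0 ± 0.16, adjusted p = 0.00169). Its relative Epas1 was at 10.19 and 10.13 against 9.05 and 9.13 and fell by 1.07 ± 0.16 on the log2 scale. Gabpb2, a partner of GABPA, fell by 1.22 ± 0.14 and Nfe2l2 by 0.65 ± 0.14. Ppargc1a, the coactivator of respiratory genes, stayed at 3.43 to 3.88 on all 8 arrays, under the background guide.

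After CCl4 few of these genes were called. Over the 7 lists of 173 genes, 2 rose and 1 fell at 2 weeks (Idh2, Mrpl54 and Epas1), and 9 rose and 2 fell at 4 weeks. The shares that rose were 1.16% and 5.2%, beside the 2.34% and 4.04% of all genes. The rises at 4 weeks were Vdac2, Slc25a5, Ttc19, Coa7, Mdh2, Idh2, Mrpl54, Mrps18b and Pprc1, by 0.53 to 0.91, and Cox16 and Tfb2m fell by 0.60 and 0.79. Neither fall was called without either 4-week array, with the replicate block or with array medians subtracted, and 1 of them was with any 1 of the other 6 arrays left out. Idh2 was thus higher after CCl4 (1.02 ± 0.21 at 2 weeks, 0.78 ± 0.21 at 4 weeks) and lower in culture. At 4 weeks no rise was called without quiescent replicate 1 or 4-week replicate 2, 1 without 4-week replicate 1, 5 without either cultured array and 5 after cyclic loess. At 2 weeks none was without quiescent replicate 1 or 2-week replicate 1, 1 without 2-week replicate 2 or either cultured or 4-week array, and Epas1 was not called without quiescent replicate 1 or either cultured or 4-week array.

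**Figure D4:**
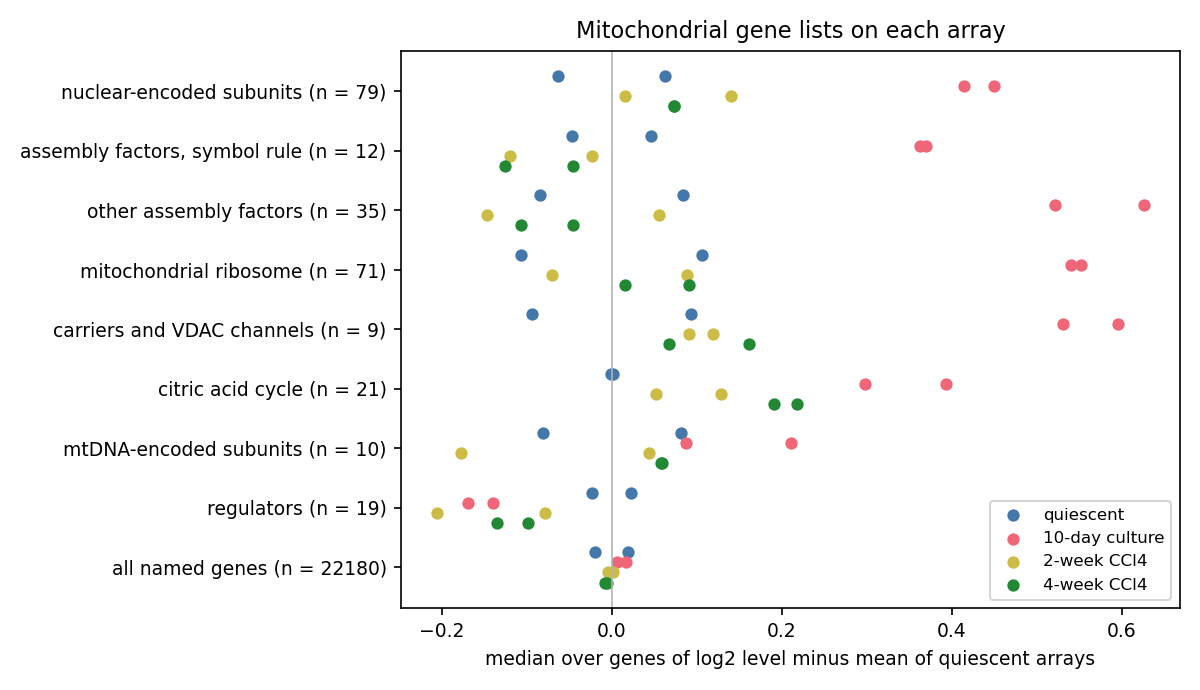
Median over the genes of each list of the log2 level minus the mean of the quiescent arrays (horizontal axis), for each of the 8 arrays, by list (rows) with the number of genes. The 79 nuclear-encoded subunits were at 0.41 and 0.45 in culture, while the 10 subunits of mitochondrial DNA were at 0.09 and 0.21 there and all named genes near 0.

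**Figure D5:**
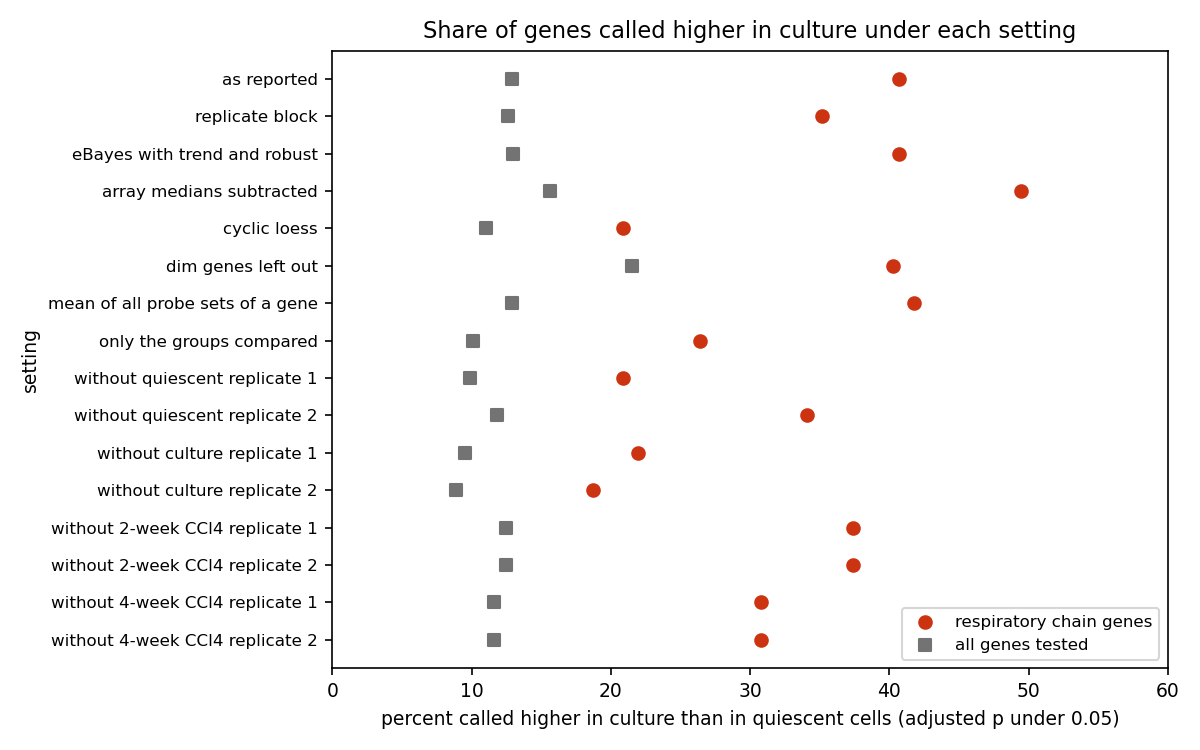
Percent of respiratory chain genes (circles) and of all genes tested (squares) called higher in culture than in quiescent cells (horizontal axis) in the reported fit and 15 alternatives (rows). The share of respiratory chain genes was above that of all genes in each, and lowest, with 17 genes, without culture replicate 2.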

How the data were processed

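RNA from primary BALB/c stellate cells had been measured on 8 Affymetrix arrays. The authors deposited log2 expression values. The submitters' processing notes name RMA and the Affymetrix Expression Console, whose versions are not given in the sources used here. Per the labels' protocols, RNA was isolated on columns and then preamplified (Pico Ovation WTA V2). Because RMA gives the arrays like distributions, it hides a shift common to most genes. Array medians ran from 4.63 to 4.72 over 41345 probe sets, and the number of arrays limits the precision.

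In the platform's annotation 23521 probe sets had 1 symbol, 1814 had several and 16010 were not named here. A gene was represented by its brightest probe set with 1 symbol, which left 22180 genes. All 91 members had a gene ID in RefSeq's gene table (GRCm38.p6), none under another symbol.

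The test was limma's (version 3.58.1, R 4.3.3, lmFit and eBayes, two-sided), in 1 fit of 8 arrays and 4 groups with 4 residual and 4.75 prior degrees of freedom, and adjusted by Benjamini-Hochberg over the 22180 genes. The fit was run on simulated data with independent normal noise, the fit's own variances and few genes changed. That run checks the code and cannot show how reliable the calls from these arrays are. With 2 arrays against 2, the smallest p of an exact permutation test is 0.333, so none was used. The alternatives were 8 fits without 1 array each and 7 others: the replicate number as a block, eBayes with trend and robust, array medians subtracted, cyclic loess, dim genes left out, the mean over a gene's probe sets, and the groups compared alone. A fit over all named probe sets and the counts of lists under these settings were added after the data were seen. The members and gene lists were chosen with earlier results of these data known. Genes were named where they are isoforms, belong to complex II, had 1 of the 3 smallest p-values of a complex past the threshold, went against their complex's median, or were its brightest or dimmest. Of other lists, the 3 with the smallest p in each direction in culture and at 4 weeks were named. Ndufab1, Ndufb9, Ndufb11, Ndufv1, Ndufv2, Sdhaf2, Atp5a1, Atp5b, Cox5b, Ppargc1a and the probe sets with several symbols lie outside this rule and were named after their values were seen.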

Additional observations from a re-analysis of the deposited data

How the results depend on the processing

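No call reversed, but the members' medians at 2 and 4 weeks turned below 0 after cyclic loess (-0.00143 and -0.06). The 37 rises in culture were 19 after cyclic loess, 24 with the quiescent and cultured arrays alone, 45 with array medians subtracted, 35 of 87 with dim genes left out (40.2%, against 21.5% of all genes tested) and 17 to 34 with 1 array left out. Of all genes, 12.9% were called higher in the reported fit, 11% after cyclic loess and 10.1% with the quiescent and cultured arrays alone. With array medians subtracted the share was 15.6%, and without any 1 array it was below 12.9%. In these fits the count of rises moved in the same direction as that share. Against CCl4 the counts and the share also moved in the same direction with 1 array left out. Of the 40 calls in culture 14 were kept in all 15 alternatives and 26 were lost in some. Against CCl4, the 36 rises were 12 to 41 with 1 array left out, the 2 falls were 1 to 3 (3 also after cyclic loess), and 10 of 38 calls were kept throughout. At 2 weeks the single fall was 0 with the replicate block, with eBayes trend and robust, after cyclic loess and with the groups compared alone, and 0 to 1 with 1 array left out, as was the count of rises. At 4 weeks there were 0 to 1 rises and 1 to 5 falls with 1 array left out. Between CCl4 times 1 member (Ndufa4l2) fell with those groups alone and 0 to 1 with 1 array left out. Of 600 complex medians under the alternatives, 49 moved by more than the median standard deviation of single genes between a group's arrays. Many of the 600 could not move. The replicate block, eBayes with trend and robust, the groups alone and the loss of an array outside a comparison leave its fold changes unaltered. The 49 of 600 is therefore no measure of stability. The causes were not tested. Where a group kept 1 array, that array was assumed to vary like the other groups.

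The replicate numbers did not pair the arrays: differences between replicates 1 and 2 correlated at -0.042 to 0.074 between groups, none over 0.1. With the replicate block 32 members rose in culture and 3 fell, against 37 and 3, and 2-week CCl4 lost its fall.

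Array signals do not rank transcripts of different genes. The precision rests on 2 arrays a group, and most calls were lost in some alternative. Valproic acid in the shared protocol cannot be told apart from culture.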

Other observations

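Of the 10 members with more than 1 single-symbol probe set, the dimmer set rose in culture for 5, in a limma fit with p adjusted over probe sets that was added after the data were seen. These were the dimmer sets of Ndufa8 (0.75 ± 0.14, adjusted p = 0.00511), Ndufa11 (0.78 ± 0.22, adjusted p = 0.0354), Atp5d (0.61 ± 0.14, adjusted p = 0.0131), Cox5b (0.61 ± 0.16, adjusted p = 0.0251) and that of Cox7b. The last rose by 1.25 ± 0.35 (adjusted p = 0.0348), while the brighter one, at 0.45 ± 0.22, was not called. That dimmer set had a mean signal of 5.39, against 10.53 for the brighter. The dimmer sets of Ndufa12, Atp5e, Atp5g2, Atp5h and Sdhaf1 were not called. The share of all probe sets called higher in that fit was not counted, so the 5 of 10 have no general rate beside them.

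Some subunits also have, or have only, probe sets that carry the symbol of another gene, and the signal of these cannot be split between the genes. In culture the probe set shared by Ndufs5 and its pseudogene rose by 1.15 ± 0.15 (adjusted p = 8.02e-04), at a mean signal of 7.78 against 4.03 for the Ndufs5 probe set used as the member. The set shared by Uqcr10 and Gm6293 rose by 0.67 ± 0.17 (adjusted p = 0.0198) and that of Ndufb4, Ndufb4b and Ndufb4c by 0.49 ± 0.13 (adjusted p = 0.0298). Both sets of Cox6c with Gm6265 differed by -0.14 ± 0.13 and 0.10 ± 0.13, both of Ndufs6 with Ndufs6b by 0.34 ± 0.13 and 0.28 ± 0.17, and that of Ndufb2 with Adck2 by 0.52 ± 0.19, none of them called. At 4 weeks of CCl4 none of these sets was called.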
